A study of Mus musculus with 26 samples.

Results

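The genes described here buffer ATP in muscle through creatine and through the adenylate pool. They are 10 genes chosen by symbol: the creatine kinases Ckm, Ckb, Ckmt1 and Ckmt2, the creatine transporter Slc6a8, the creatine synthesis enzymes Gatm and Gamt, the AMP deaminases Ampd1 and Ampd3, and the adenylate kinase Ak1. All 10 were found in both deposited tables, among 53465 genes in the table of regenerating muscle and 55487 in the table of C2C12 cells. The first table holds whole tibialis anterior (TA) muscle of 6-week-old male C57BL/6J mice, 2 libraries for each of days 0, 1, 3, 5 and 10 after cardiotoxin (CTX), a snake venom toxin that destroys myofibers. The labels do not say whether day 0 muscle was untouched or received the saline that the study used as its control. The second table holds C2C12, a mouse myoblast line that fuses into myotubes when serum is withdrawn, with 2 libraries for each of 4 groups. These are a control line and a line named Cas9M3, each in growth medium with 10% FBS (GM) and after 3 days in differentiation medium with 2% horse serum (DM3). Cas9M3 cells carry dCas9-KRAB, a dead Cas9 fused to a repressor domain and driven by the hUbC promoter, with guides to the promoter of Mettl3, the m6A methyltransferase. The construct was delivered by lentivirus and infected cells were selected with puromycin, and no cloning step is given. The series' design text calls these cells knockout, whereas the construct represses transcription.

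Phosphocreatine is the fast reserve of ATP in muscle. Mitochondrial creatine kinase charges creatine with phosphate from newly made ATP, and the cytosolic enzymes give that phosphate back to ADP where ATP is spent. Creatine is made in 2 steps, in which Gatm moves the amidino group of arginine to glycine, giving guanidinoacetate, and Gamt methylates that product. Muscle takes most of its creatine from blood through Slc6a8. Adenylate kinase turns ADP into ATP and AMP, and AMP deaminase then converts AMP to IMP and so keeps the reaction running during hard work.

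The upstream sequences of 4 members are shown because these genes moved in opposite directions after injury, Ckm and Ckmt2 down and Ckb and Gatm up. They are the RefSeq windows of 250 bases before the start site on GRCm38.p6, without the bases that GENCODE M21 places in an exon of the gene, which removed 69 bases next to the start of Ckm and 26 next to that of Gatm. Capitals mark the E-box CANNTG, the TATA box TATAAA and the CCAAT box CCAAT, searched on both strands.
Ckm, chr7:19410844-19411024, + strand: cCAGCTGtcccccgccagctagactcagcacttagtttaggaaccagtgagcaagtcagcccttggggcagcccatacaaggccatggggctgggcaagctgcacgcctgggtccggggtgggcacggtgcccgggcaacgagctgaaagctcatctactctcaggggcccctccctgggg
Ckmt2, chr13:91876886-91877135, - strand: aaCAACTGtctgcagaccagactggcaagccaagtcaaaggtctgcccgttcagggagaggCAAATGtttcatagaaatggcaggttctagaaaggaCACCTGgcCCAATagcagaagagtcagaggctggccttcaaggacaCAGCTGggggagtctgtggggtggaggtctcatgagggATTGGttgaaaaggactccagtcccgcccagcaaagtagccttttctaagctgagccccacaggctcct
Ckb, chr12:111672339-111672588, - strand: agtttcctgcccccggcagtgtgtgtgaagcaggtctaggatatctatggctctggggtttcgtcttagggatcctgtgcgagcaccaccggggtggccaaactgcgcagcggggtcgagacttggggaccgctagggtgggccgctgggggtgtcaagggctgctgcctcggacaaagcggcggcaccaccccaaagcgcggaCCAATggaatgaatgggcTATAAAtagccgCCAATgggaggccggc
Gatm, chr2:122611304-122611527, - strand: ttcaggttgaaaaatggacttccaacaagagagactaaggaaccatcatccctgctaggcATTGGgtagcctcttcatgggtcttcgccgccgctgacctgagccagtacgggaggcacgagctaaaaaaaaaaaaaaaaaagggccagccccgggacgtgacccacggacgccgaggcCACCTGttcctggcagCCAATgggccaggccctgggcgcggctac
In the whole 250 bases, Ckmt2 held 4 E-boxes and 2 CCAAT boxes, Ckm held 1 E-box, Gatm held 1 E-box and 2 CCAAT boxes, and Ckb held no E-box but 1 TATA box and 2 CCAAT boxes. Of 32851 RefSeq promoter windows of this length, 66.2% held an E-box, 12.4% a TATA box and 33.8% a CCAAT box. Among the members not shown, Gamt also rose, and its window held no E-box, TATA box or CCAAT box. Ak1 fell, and its 4 windows held 3, 1, 2 and 1 E-boxes and no TATA or CCAAT box. These matches are descriptions of letters and not of binding. The set of windows had no entry for Slc6a8 or Ampd1, and the windows of Ckmt1 and Ampd3 are not described here.

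Levels are given in FPKM, reads scaled by the authors to gene length and to a size factor for each library, so they can be compared between genes within a table. A size factor sets the typical gene level between libraries, whatever the total of reads. As an alternative chosen after seeing the data, each library was scaled to its reads on genes, which divided the FPKM by 1.35 and 1.21 on day 0 and by 0.726 and 0.706 on day 3. The 2 tables were scaled separately and no test was made across them. A depth of 14170000 to 18820000 reads on genes per muscle library and 14230000 to 29570000 per cell library was read from the step that 1 read makes in the values. Fold changes come from limma on log2(FPKM + 0.1), a scale that understates changes of low genes, and a gene was called at a Benjamini-Hochberg adjusted p of at most 0.05 over all genes tested. The labels do not say that replicates were separate animals or cultures, so the p-values measure the spread between these libraries, which may be technical. In whole muscle, fewer cells of a type and less RNA per cell cannot be told apart.

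The muscle libraries differed in ways that touch these results. All 12 muscle fibre genes on a marker list (Acta1, Myh1, Tnnt3 and others) were called lower on day 3 in the comparison against day 0 (median log2 change −2.15). With scaling to reads on genes 11 of 12 were lower (median −1.31). Under quantile normalization, which gives every library the same set of values, 3 of 12 were lower and 1 higher (median −0.344). The summed level of the 12 was 79725 to 90169 FPKM on day 0 and 19424 to 24825 on day 3. Of the macrophage and monocyte genes, 8 of 8 were called higher, and their sum was 48.8 to 99.6 FPKM on day 0, 326 to 395 on day 1, 1585 to 1623 on day 3, 467 to 532 on day 5 and 74.7 to 278 on day 10. The lists of developing muscle and myoblast genes were called higher for 8 of 8 and 5 of 5. On the deposited scale 3 of 6 fibroblast genes tested were higher, 4 of 6 smooth muscle and pericyte genes were higher and 1 lower, and 1 of 4 neutrophil genes was higher. Lower calls were made there for 2 of 6 endothelial, 1 of 5 erythroid and 1 of 5 Schwann cell genes, and 0 of 2 adipocyte genes were called. With scaling to reads on genes these lists had 0 lower calls. On that scale 4 fibroblast, 4 smooth muscle and pericyte, 1 neutrophil, 1 Schwann cell and 2 adipocyte genes were higher. Under quantile normalization the counts were as on the deposited scale, except for 4 fibroblast genes higher and 2 Schwann cell genes lower. The neutrophil marker Ly6g was under 0.1 FPKM in both libraries of every day. Xist, the RNA of the inactive X chromosome, reached 5.77 to 10.0 FPKM in 5 libraries, those of days 0 and 10 together with day 3 replicate 2. The other 5 had no more than 0.152, although the study's methods give male mice. Days 1 and 5 therefore cannot be told apart from Xist status when they are compared with day 0.

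Ckm, on chromosome 7 at 19404776 to 19422841 (+ strand), encodes the cytosolic creatine kinase of muscle. Its level was 7577 and 6054 FPKM on day 0, 4588 and 5438 on day 1, then 1621 and 1013 on day 3. It was 3748 and 3690 on day 5, then 7556 and 5619 on day 10. The libraries of days 0 and 10 overlapped, and those of every other pair of neighbours in the order day 10, day 1, day 5 and day 3 were separate. Even on day 3 Ckm was the gene with rank 21 by mean FPKM, against rank 18 on day 0.

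Ckm fell by 2.40 ± 0.30 (SE) on the log2 scale from day 0 to day 3 (limma, adjusted p = 0.000817, n = 2 a day) and rose by 2.35 ± 0.30 from day 3 to day 10 (adjusted p = 0.00137). Under quantile normalization, which gives genes of like rank near the top of each library like values, the same changes were −0.36 (limma, adjusted p = 0.213) and 0.57 (adjusted p = 0.0727). On day 5 the mean was still 54.6% of that on day 0, a change of −0.865 ± 0.30 that was not called (limma, adjusted p = 0.0722). An antisense gene, A930016O22Rik, shares exon bases with Ckm, and without a stated strand setting their reads cannot be told apart.

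Ckmt2, on chromosome 13 at 91853387 to 91876885 (− strand), encodes the mitochondrial creatine kinase of sarcomeric muscle. It was at 1664 and 1467 FPKM on day 0, 923 and 886 on day 1, 222 and 120 on day 3, 579 and 520 on day 5, then 1197 and 1119 on day 10. No 2 days overlapped, and day 0 was highest. It fell by 3.26 ± 0.27 in log2 units to day 3, down to 10.9% of the day 0 mean (limma, adjusted p = 0.000301), the deepest fall among the members tested. It rose again by 2.82 ± 0.27 to day 10 (limma, adjusted p = 0.000633). The day 10 mean was 74% of that on day 0, and this difference of −0.43 was not called (limma, adjusted p = 0.602, 95% interval −1.07 to 0.20).

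Measured against the median of the 12 fibre genes in the same library, the log2 change of Ckmt2 from day 0 differed by −1.01 and −1.3 on day 3 in replicates 1 and 2, and by −0.68 and −0.75 on day 5. For Ckm the same distances were −0.26 and −0.34 on day 3, and for Ampd1 and Ak1 the day 3 values were 0.01 to 0.30 above the fibre median. Ckmt2 as a share of the summed FPKM of the 4 creatine kinases went from 18% and 19.5% on day 0 to 11.6% and 9.72% on day 3, and stood at 13.7% and 16.6% on day 10. These distances and shares are descriptions with no test.

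Ckb, on chromosome 12 at 111669361 to 111672338 (− strand), encodes the cytosolic creatine kinase of brain and many other tissues. It was at 2.66 and 3.98 FPKM on day 0, 5.21 and 3.68 on day 1, 65.6 and 102 on day 3, 10.3 and 10.2 on day 5, then 4.43 and 8.91 on day 10. Both day 3 libraries stood above all the others, day 5 was above day 10, and the libraries of days 10, 1 and 0 overlapped with their neighbours. The day 3 mean was 25.2 times that of day 0, a rise of 4.61 ± 0.37 (limma, adjusted p = 0.000284), and Ckb fell by 3.68 ± 0.37 from day 3 to day 10 (adjusted p = 0.000678). Its rise against day 1 was 4.19 ± 0.37 (limma, adjusted p = 0.00205).

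Within the cytosolic pair, Ckb made up 0.0351% and 0.0658% of the summed FPKM of Ckm and Ckb on day 0. The share reached 3.89% and 9.14% on day 3 and was 0.275% in both libraries of day 5. On day 10 it was 0.0586% and 0.158%. Ckm thus remained the more abundant of the pair in every muscle library. Ckmt1, the mitochondrial form outside sarcomeric muscle, was at 0 in all libraries of days 0 and 1 and reached at most 0.0906 FPKM elsewhere. It did not pass the filter of 0.5 FPKM in 2 libraries, and 3 reads would have given 0.0594 to 0.0982 FPKM.

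**Figure D1:**
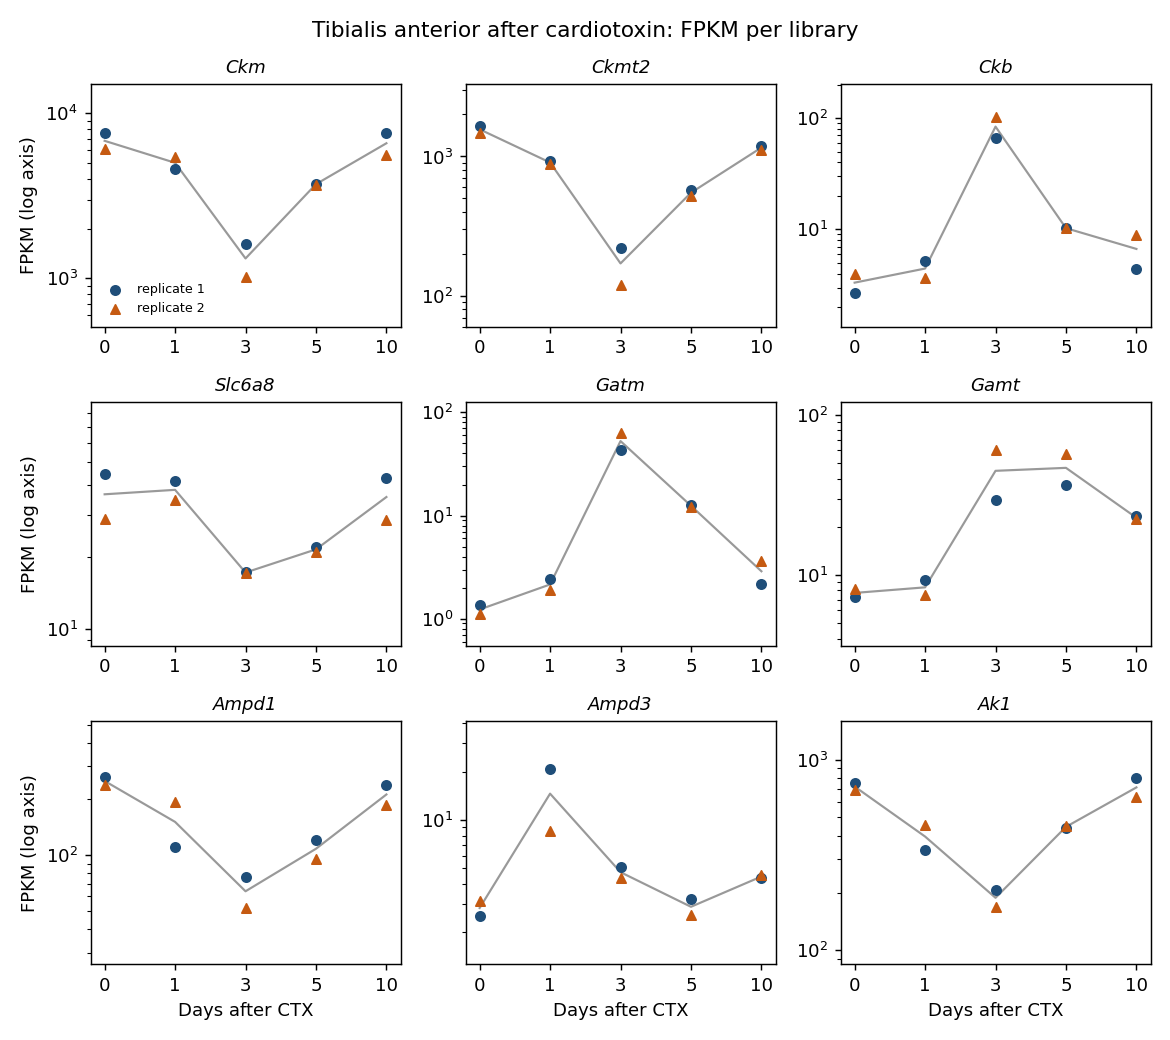
FPKM as deposited of the 9 members that passed the filter (y axis, log scale) against days after CTX (x axis, not to scale), with 1 point for each library and a line through the means of 2. Ckm, Ckmt2, Slc6a8, Ampd1 and Ak1 were lowest on day 3, Ckb and Gatm were highest on day 3, and Ampd3 was highest on day 1.

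Slc6a8, on chromosome X at 73673150 to 73682502 (+ strand), encodes the plasma membrane transporter that brings creatine into the fibre. It was at 44.3 and 28.9 FPKM on day 0, 41.6 and 34.8 on day 1, 17.4 and 17.1 on day 3, 22.0 and 21.1 on day 5, then 42.6 and 28.7 on day 10. The libraries of days 0, 1 and 10 overlapped, and those of days 5 and 3 lay below them and apart from each other. Scaled to reads on genes, the day 0 libraries were at 32.9 and 23.9, those of day 3 at 24.0 and 24.3, and those of day 5 at 22.4 and 22.1, so that days 0 and 3 overlapped. On the deposited scale the fall to day 3 was 1.05 ± 0.25 (limma, adjusted p = 0.00992), less than that of the fibre median. It was lost without day 0 replicate 1 (−0.74, limma, adjusted p = 0.0628) and without day 3 replicate 2 (−1.03, adjusted p = 0.0516). The rise of 1.01 ± 0.25 to day 10 (limma, adjusted p = 0.0152) was lost without either day 3 library or day 10 replicate 1 (adjusted p of 0.0647, 0.0735 and 0.0951). With scaling to reads on genes neither was called, at −0.22 to day 3 (limma, adjusted p = 0.361) and 0.30 to day 10 (adjusted p = 0.226).

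The 2 enzymes of creatine synthesis rose as the kinases of the fibre fell. Gatm, on chromosome 2 at 122594467 to 122611303 (− strand), is the arginine:glycine amidinotransferase. It was at 1.36 and 1.10 FPKM on day 0, 2.42 and 1.88 on day 1, 42.8 and 62.6 on day 3, 12.7 and 12.2 on day 5, then 2.15 and 3.62 on day 10. Every day was apart from day 0, and days 10 and 1 overlapped with each other. Its rise of 5.29 ± 0.28 to day 3, 42.8 times the day 0 mean, was the largest of the members (limma, adjusted p = 0.000263), and it fell by 4.17 ± 0.28 to day 10 (adjusted p = 0.000558). By mean FPKM it moved from rank 10865 on day 0 to rank 572 on day 3.

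Gamt, the guanidinoacetate methyltransferase on chromosome 10 at 80258151 to 80261012 (− strand), also rose, and was as high on day 5 as on day 3. It was at 7.23 and 8.19 FPKM on day 0, 9.28 and 7.43 on day 1, 29.5 and 59.9 on day 3, 36.4 and 56.9 on day 5, then 23.2 and 22.3 on day 10. The libraries of days 3 and 5 overlapped and lay above all the others, and day 10 lay above days 1 and 0. The change against day 0 was 2.43 ± 0.34 on day 3 (limma, adjusted p = 0.00113) and 2.55 ± 0.34 on day 5 (adjusted p = 0.00966). On day 10 it was 1.55 ± 0.34, 2.96 times the mean of day 0 with no overlap, but it was not called (limma, adjusted p = 0.339), and from day 3 to day 10 the change was −0.88 (adjusted p = 0.0745). That last change was called under quantile normalization (−1.17, limma, adjusted p = 0.033) and with scaling to reads on genes (−1.59, adjusted p = 0.0087). Without day 3 replicate 1, which leaves 1 library on day 3, it was −1.39, and with a term for Xist it was also −1.39.

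Ampd1, on chromosome 3 at 103074014 to 103099720 (+ strand), is the AMP deaminase of muscle. It was at 263 and 238 FPKM on day 0, 110 and 192 on day 1, 76.1 and 51.9 on day 3, 121 and 95.6 on day 5, then 238 and 186 on day 10. Day 0 was highest and day 3 lowest without overlap, while day 1 overlapped with days 10 and 5. The margin between days 0 and 10 was small, with a library of each at 238 after rounding. Their difference of −0.25 was not called (limma, adjusted p = 0.778, 95% interval −0.954 to 0.449). Ampd1 fell by 1.99 ± 0.30 to day 3 (limma, adjusted p = 0.00161) and rose by 1.74 ± 0.30 to day 10 (adjusted p = 0.00418). Scaled to reads on genes, days 3 and 5 overlapped.

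Ampd3, on chromosome 7 at 110768206 to 110812405 (+ strand), is the form known from red blood cells and found in many tissues. It was highest on day 1 and was at 2.52 and 3.13 FPKM on day 0, 20.7 and 8.48 on day 1, 5.12 and 4.33 on day 3, 3.21 and 2.54 on day 5, then 4.32 and 4.56 on day 10. Both day 1 libraries lay above the rest, although they differed from each other by more than those of any other day. The day 1 mean was 5.17 times that of day 0, a rise of 2.20 ± 0.37 (limma, adjusted p = 0.0269), and it fell by 1.47 ± 0.37 to day 3 (adjusted p = 0.0216). The fall was lost without either day 3 library (−1.59 and −1.36). It was also lost with only days 1 and 3 in the fit (−1.47, limma, adjusted p = 0.123) and with a term for Xist (−1.36, adjusted p = 0.122). With scaling to reads on genes it was not called either (−0.92, limma, adjusted p = 0.0996). The rise was not called with only days 0 and 1 in the fit (2.20, limma, adjusted p = 0.22) or without any 1 library of days 0, 3 or 5 or replicate 1 of day 1 (adjusted p from 0.0533 to 0.154). With a term for Xist it was 1.96 (limma, adjusted p = 0.43), and without that replicate it was 1.56 (adjusted p = 0.0793). Against day 0 the day 3 change of 0.73 was not called (limma, adjusted p = 0.142), but it was without either day 1 library (adjusted p of 0.0144 and 0.0141) and with scaling to reads on genes (1.54, adjusted p = 0.0117). The summed level of 7 erythroid genes was 237 to 357 FPKM on day 0 and 90 to 132 on day 1, and that of 6 neutrophil genes was 1.71 to 5.53 and 10.4 to 19.4. That of 8 macrophage and monocyte genes was 48.8 to 99.6 and 326 to 395. On day 1 against day 0, 1 of 4 neutrophil genes tested and 2 of 8 macrophage and monocyte genes were called higher, and 0 of 5 erythroid genes were called. The part of these cell types in the rise of Ampd3 was not tested.

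Among the 3 AMP deaminases, Ampd3 held 0.945% and 1.29% of the summed FPKM on day 0 and 15.2% and 4.18% on day 1. On day 3 it held 6.02% and 7.17%, on day 5 2.5% in both libraries, and on day 10 1.77% and 2.37%. Ampd1 kept at least 80.6% in every muscle library. Ampd3 shares short exon stretches with Rnf141 and B430319F04Rik on the other strand.

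Ak1, on chromosome 2 at 32621758 to 32635058 (+ strand), is the main cytosolic adenylate kinase of muscle. It was at 756 and 689 FPKM on day 0, 335 and 455 on day 1, 208 and 169 on day 3, 438 and 450 on day 5, then 797 and 633 on day 10. Days 0 and 10 overlapped, as did days 5 and 1, and day 3 was lowest without overlap. It fell by 1.94 ± 0.21 to day 3 (limma, adjusted p = 0.00048) and rose by 1.92 ± 0.21 to day 10 (adjusted p = 0.000797). The change of −0.89 ± 0.21 on day 1 missed the threshold narrowly (limma, adjusted p = 0.0501), and was called without day 1 replicate 2 (−1.11, adjusted p = 0.0312).

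Counted together, 1 of the 9 members tested was called on day 1 against day 0, where 6% of all 16753 genes tested were called. With only days 0 and 1 in the fit 0 members were called, and without day 1 replicate 2 the members called were 3. On day 3 against day 0, 8 of 9 were called, and 48.8% of all genes were. The calls were 3 higher (Gatm, Ckb and Gamt, with 24.5% of all genes higher) and 5 lower (Ckmt2, Ckm, Ampd1, Ak1 and Slc6a8, with 24.3% lower). With a log2 change of at least 2 as well, 5 members were called against 13.3% of all genes. The median change over all genes was 0.0075, as the size factors set it, and 0.79 with scaling to reads on genes. On that scale 8775 genes were called higher and 1461 lower, and 8 members were called, 4 higher and 4 lower, with Ampd3 gained and Slc6a8 lost. The lower ones were Ckmt2 (−2.42), Ckm (−1.57), Ampd1 (−1.16) and Ak1 (−1.11), with adjusted p from 0.000467 to 0.00714 (limma), and Gatm (6.10), Ckb (5.43) and Gamt (3.26) were still called higher.

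Against day 1, all 9 were called on day 3, 3 higher and 6 lower, where 31.1% of all genes were called, 14.5% higher and 16.6% lower. With a log2 change of at least 2, 4 were called against 6.02% of all genes. Without the filter on low values Ckm was not called (limma, adjusted p = 0.0586). Only 5 were called with just those 2 days in the fit, and 5 without day 3 replicate 2, which leaves only libraries without Xist in the comparison. In that fit Ckm (−1.62), Ckb (3.87), Ckmt2 (−2.02), Gamt (1.82) and Gatm (4.27) had adjusted p from 0.0104 to 0.0385 (limma). Without day 3 replicate 1, day 3 against day 0 compares only libraries with Xist. The changes there were 5.56 for Gatm, 4.93 for Ckb, 2.94 for Gamt and 0.61 for Ampd3. They were −3.70 for Ckmt2, −2.74 for Ckm, −2.27 for Ampd1, −2.09 for Ak1 and −1.06 for Slc6a8. This fit and that without day 3 replicate 2 each leave 1 library on day 3. Their spread comes from the days with 2 libraries, so neither repeats the day 3 change within an Xist status. In addition, Slc6a8 against day 1 was lost without day 1 replicate 1 or day 3 replicate 1 (limma, adjusted p of 0.0585 and 0.0582), and Ampd1 without day 1 replicate 2 (adjusted p = 0.0822). With scaling to reads on genes 7 were called, 3 higher and 4 lower, without Ampd3 (−0.92) and Ampd1 (−0.65, limma, adjusted p = 0.0891), where the median over all genes was 0.505.

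On day 5 against day 0, 6 of 9 were called and 25.5% of all genes were. Gatm, Gamt and Ckb were higher (12.9% of all genes) and Ckmt2, Ampd1 and Ak1 lower (12.5%), with 2 members and 5.17% of all genes past a log2 change of 2. Gatm still stood 10.1 times above its day 0 mean, at 3.24 ± 0.28 (limma, adjusted p = 0.00659), and Ckb at 1.62 ± 0.37 (adjusted p = 0.022). Ckmt2 was at −1.51 ± 0.27 (limma, adjusted p = 0.0142), Ampd1 at −1.22 ± 0.30 (adjusted p = 0.0271) and Ak1 at −0.70 ± 0.21 (adjusted p = 0.0438). Slc6a8 was not called at −0.73 ± 0.25 (limma, adjusted p = 0.0641), and neither was Ampd3 at 0.02. Without the filter on low values Ampd1 (limma, adjusted p = 0.0539) and Ak1 (adjusted p = 0.102) were not called. With only days 0 and 5 in the fit Ak1 was not called either (limma, adjusted p = 0.0598). Under quantile normalization the 3 higher calls stayed and the lower calls were 0. With scaling to reads on genes, where the median over all genes was 0.364, they were 3 higher and 1 lower, and Ampd1 (−0.82, limma, adjusted p = 0.0579) and Ak1 (−0.30, adjusted p = 0.206) were not called. With a term for Xist, which here rests on the 2 libraries of day 3, the members called were 0. The changes in that fit were 3.79 for Gatm, 3.57 for Gamt and −2.40 for Ckmt2 (limma, adjusted p = 0.107 for each), then 2.26 for Ckb, −1.77 for Ampd1 and −1.0 for Ak1 (adjusted p from 0.181 to 0.227). The members called were 1 without day 0 replicate 1, 2 without day 5 replicate 1 and 0 without day 5 replicate 2. Ak1 was lost without any 1 library of days 0, 3 or 5 (limma, adjusted p from 0.0583 to 0.199) and Ampd1 without any 1 of days 0 or 5 (0.0605 to 0.153), whereas Slc6a8 was called without day 0 replicate 2 or either day 10 library (0.0337 to 0.0464).

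By day 10, 0 of 9 members and 0.00597% of all genes (1 gene) were called against day 0 by limma, while 3 members had an unadjusted p under 0.05, which were Gamt, Gatm and Ckb at 1.55, 1.13 and 0.93. For Ckm, Ak1 and Slc6a8 the changes lay between −0.06 and −0.02, with 95% intervals of −0.76 to 0.65, −0.51 to 0.46 and −0.61 to 0.54. Against day 3, 7 of 9 were called and 37.9% of all genes were. They were 5 higher (19.1% of all genes) and 2 lower (18.8%), and 4 against 8.28% with a log2 change of at least 2. Under quantile normalization this split was 4 higher and 3 lower, and the same with scaling to reads on genes, where the median over all genes was −0.683.

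**Figure D2:**
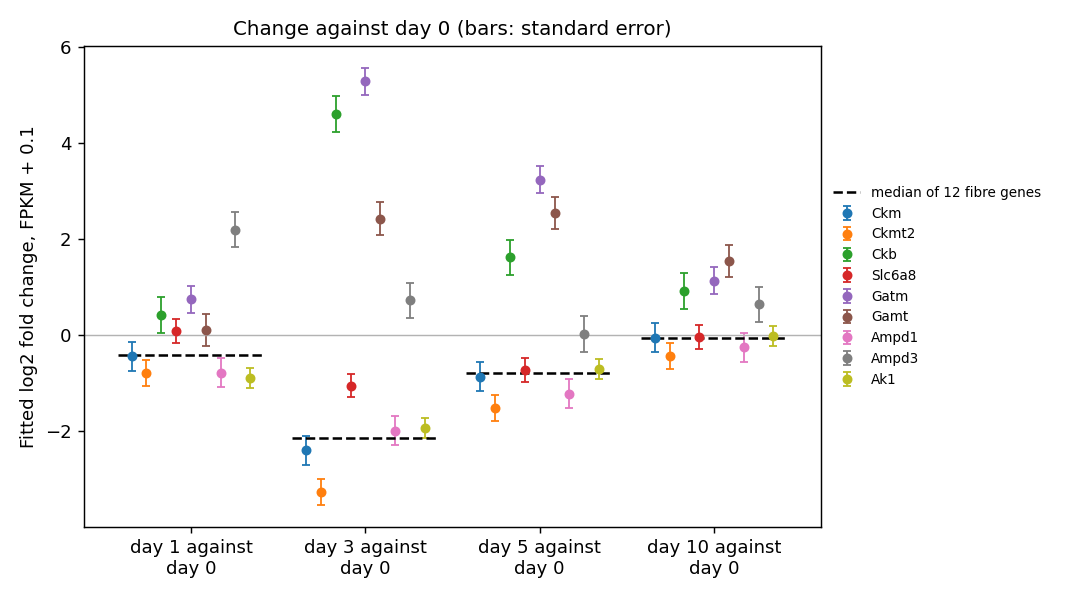
Fitted log2 fold change against day 0 (y axis, on FPKM + 0.1) for 9 members at 4 days (x axis), with standard error bars and a dashed line at the median of 12 muscle fibre genes. On day 3 Ckm, Ampd1 and Ak1 lie near the fibre median of −2.15, Ckmt2 lies below it at −3.26, and Gatm and Ckb lie highest at 5.29 and 4.61.

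Genes with the time course most like that of a member, over the 10 muscle libraries and 12284 other genes of at least 1 FPKM on average, are given as descriptions, since the libraries share days and depth. For Ckm they were its antisense gene A930016O22Rik (Pearson r = 0.998) and the fast troponins Tnni2 and Tnnt3 (both 0.998). For Ckmt2 they were the antisense gene 1700119I11Rik (0.999), which shares exon bases with it, 4930506C21Rik (0.995) and Mpc1 (0.994), a subunit of the mitochondrial pyruvate carrier. For Ckb they were Isyna1 (0.994), which makes inositol phosphate, Tubb2b (0.991), a tubulin, and Tmem176b (0.991). For Ampd3 they included Ubxn4 (0.993) and Hspa13 (0.971).

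A wider list held 46 other genes of creatine methyl supply, adenylate kinases, the purine nucleotide cycle, adenine salvage and breakdown, nucleoside diphosphate kinases, mitochondrial ADP/ATP carriers and channels, and AMP-activated protein kinase. On day 3 against day 0, 8 of the 37 tested were called higher and 18 lower, or 70.3%, with a median of −0.62, where 24.5% of all genes were called higher and 24.3% lower, 48.8% together. With scaling to reads on genes the list had 16 higher and 10 lower and a median of 0.20, so its direction depended on the scaling. The counts that follow are on the deposited scale. The carriers and channels had 4 of 5 lower and 1 higher, and the other adenylate kinases 3 of 4 lower. Slc25a4, the ADP/ATP carrier of muscle and heart, fell by 2.51 ± 0.21 (limma, adjusted p = 0.000307) and Vdac1, an outer membrane channel, fell by 2.25 ± 0.21 (adjusted p = 0.000352). Nme4, a mitochondrial nucleoside diphosphate kinase, rose by 2.45 ± 0.47 (limma, adjusted p = 0.0044) and Ada, adenosine deaminase, by 2.31 ± 0.46 (adjusted p = 0.00517). Salvage and breakdown genes had 4 of 8 higher and 2 lower, and the purine nucleotide cycle 1 of 4 higher and 2 lower. Of nucleoside diphosphate and guanylate kinases 2 of 6 were higher and 3 lower, of AMP-activated protein kinase subunits 3 of 7 were lower, and of methyl supply genes 1 of 3 was lower.

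At the other times fewer genes of the list were called. On day 1, when 16.2% of the list and 6% of all genes were called, 1 of 37 was higher, Aprt of adenine salvage at 1.07 ± 0.24 (limma, adjusted p = 0.0449), and 5 were lower, led by Adk, adenosine kinase, at −1.31 ± 0.25 (adjusted p = 0.0319) and Ak4, a mitochondrial adenylate kinase, at −1.25 ± 0.29 (adjusted p = 0.0495). On day 5, 4 were higher and 13 lower (45.9% of the list, 25.5% of all genes), with Nme4 (1.89) and the nucleotidase Nt5c2 (1.46) highest and Ak4 (−1.96) and Adssl1 (−1.68), the muscle adenylosuccinate synthase, lowest. On day 10 it was 0 of 37. Against day 1, when 43.2% of the list and 31.1% of all genes were called, day 3 had 3 higher, led by Nt5c2 (2.04) and Nme4 (1.92), and 13 lower, led by Prkab2 (−1.94), a subunit of AMP-activated protein kinase, and Slc25a4 (−1.56). From day 3 to day 10, when 56.8% of the list and 37.9% of all genes were called, 15 rose, led by Slc25a4 (2.31) and Vdac1 (1.97), and 6 fell, led by Ada (−2.07) and Nme4 (−1.73). With scaling to reads on genes the list had 2 higher and 1 lower on day 1, 7 and 5 on day 5, 9 and 8 for day 3 against day 1, and 9 and 17 for day 10 against day 3.

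**Figure D3:**
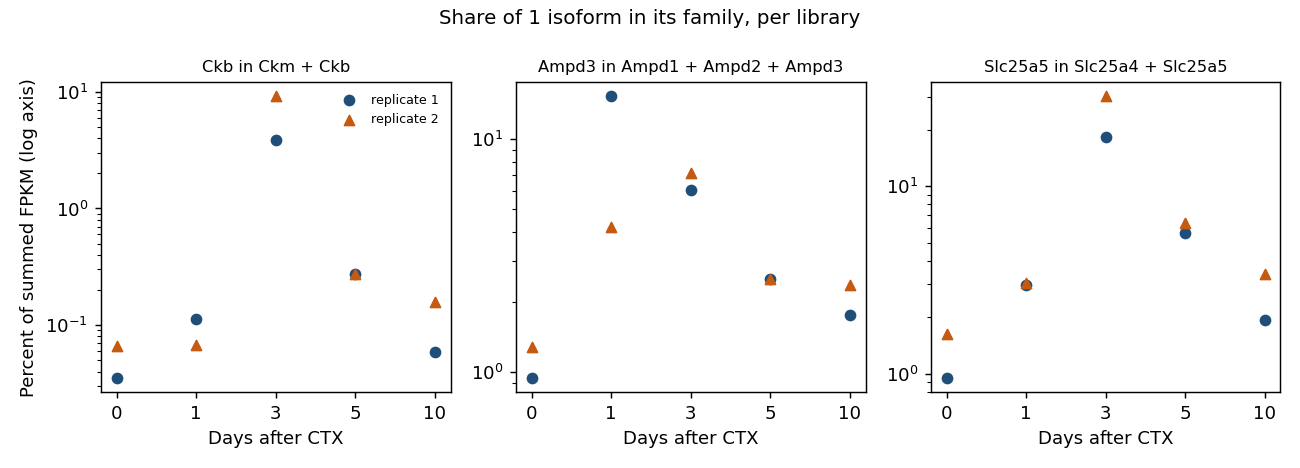
Share of the named isoform in the summed FPKM of its family (y axis, percent, log scale) against days after CTX (x axis, not to scale), 1 point for each muscle library. Ckb in Ckm plus Ckb peaked on day 3 at 3.89% and 9.14%, Ampd3 among the AMP deaminases was highest in day 1 replicate 1 at 15.2%, and Slc25a5 in Slc25a4 plus Slc25a5 reached 18.3% and 30.1% on day 3.

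In the C2C12 libraries, the targeted gene Mettl3 was at 4.70 and 5.65 FPKM in control GM and 4.68 and 5.15 in control DM3. It was at 0.331 and 0.118 in Cas9M3 GM and 0.148 and 0.0805 in Cas9M3 DM3, so no library went against its label. The change was −4.56 ± 0.40 on DM3 (limma, adjusted p = 0.0187) and −4.10 ± 0.40 in GM (adjusted p = 0.188). The ribosomal RNA gene CT010467.1 was at 1500 to 1883 FPKM in the 4 libraries numbered 1 and at 32035 to 163098 in the 4 numbered 2. Depth split the same way, at 25170000 to 29570000 reads on genes in those numbered 1 and 14230000 to 18900000 in those numbered 2. The numbers thus mark differences between libraries that all 4 groups share.

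In these cells several members were at or near 0. Ckmt1 and Ckmt2 were at no more than 0.0545 and 0.147 FPKM, and Ampd1 had 1 read in 1 of 8 libraries, where 3 reads would have given 0.0266 to 0.0876 FPKM. These 3 did not pass the filter, which left 7 members. Ckb held 55.2% to 99.2% of the summed FPKM of Ckm and Ckb in the cells, where it held at most 9.14% in muscle, and Ak1 held 35.4% to 53.1% of the 9 adenylate kinases, where it held 82.2% to 93.9% in muscle. These are shares within a library, set side by side across tables that were scaled separately. The muscle fibre list had a summed level of 752 to 754 FPKM in control DM3 and 19.4 to 24.6 in Cas9M3 DM3, and 5 of 8 macrophage genes, C1qa among them, were under 0.1 FPKM in both libraries of every group.

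Ckm was at 0.896 and 0.462 FPKM in control GM and 5.65 and 6.33 in control DM3. It was at 0.598 and 0.168 in Cas9M3 GM and at 0.0739 and 0.0701 in Cas9M3 DM3, about 6 and 3 reads. Both control DM3 libraries lay above all the others and both Cas9M3 DM3 libraries below. On DM3 the control mean was 83.2 times that of Cas9M3, and the reads of the 2 groups, 758 and 9, gave a ratio of 81.3 (exact 95% interval 42.6 to 179, which covers counting error only).

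On the fitted scale, Cas9M3 DM3 against control DM3 had a median change of −4.78 over the 10 muscle fibre genes tested. Over the 7 developing muscle genes tested the median was −4.88. Ckm was lower in Cas9M3 DM3 than in control DM3 by −5.14 ± 0.54 (limma, adjusted p = 0.0215, n = 2 a group). The call was lost without any 1 of the 4 DM3 libraries, at −5.06 to −5.22 (limma, adjusted p from 0.23 to 0.266). In control cells the change from GM to DM3 was 3.02 ± 0.54 (limma, adjusted p = 0.0664). With the replicate number as a block it was called (limma, adjusted p = 0.0398), as it was with a pseudocount of 1 (2.07, adjusted p = 0.0132), without control GM replicate 1 (3.43, adjusted p = 0.0249) and without Cas9M3 GM replicate 2 (adjusted p = 0.049). In Cas9M3 cells it was −1.33 ± 0.54 (limma, adjusted p = 0.388). The difference between the Cas9M3 effects on DM3 and in GM was −4.35 ± 0.77, with an unadjusted p of 0.00108 from the limma fit and an adjusted p of 0.266.

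Ckb was at 3.28 and 5.94 FPKM in control GM, 6.95 and 8.07 in control DM3, 3.14 and 7.09 in Cas9M3 GM, and 6.16 and 9.05 in Cas9M3 DM3. Neighbours in the order of the means all overlapped, and replicate 2 was higher in every group. Control DM3 and Cas9M3 DM3 both lay above control GM without overlap, at 1.63 and 1.65 times its mean. In control cells the change from GM to DM3 was 0.75 ± 0.46 and was not called (limma, adjusted p = 0.404, 95% interval −0.36 to 1.86). The Cas9M3 effect on DM3 was −0.00 ± 0.46 with a 95% interval of −1.11 to 1.11 (limma, adjusted p = 0.999).

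Gatm was at 7.45 and 8.21 FPKM in control GM and 16.4 and 14.3 in control DM3. It was at 6.49 and 12.6 in Cas9M3 GM and at 4.59 and 5.24 in Cas9M3 DM3. Control DM3 lay above all other groups and Cas9M3 DM3 below them, a difference of 3.12 times on DM3. The fitted change of −1.62 ± 0.32 was not called (limma, adjusted p = 0.0645), but it was with the replicate block (adjusted p = 0.0435), with only the DM3 groups in the fit (adjusted p = 0.00601), and without any 1 of the 4 GM libraries (adjusted p from 0.0289 to 0.0467).

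Gamt was at 16.3 and 34.3 FPKM in control GM, 23.4 and 31.7 in control DM3, 12.7 and 19.7 in Cas9M3 GM, and 10.6 and 15.7 in Cas9M3 DM3. On DM3 the groups were separate and the control mean was 2.09 times higher, while in GM they overlapped. The DM3 change of −1.07 ± 0.43 was not called (limma, adjusted p = 0.269), but it was with the replicate block (adjusted p = 0.0493).

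Slc6a8 was at 71.4 and 22.9 FPKM in control GM and 65.9 and 25.6 in Cas9M3 GM, so that replicate 1 was about as high in both lines. On DM3 it was at 31.4 and 27.3 in control and 37.6 and 38.3 in Cas9M3, which did not overlap. Ampd3 showed the same split by number in GM, at 43.8 and 2.93 in control and 40.0 and 6.22 in Cas9M3, and was at 11.1, 9.97, 11.6 and 9.64 in the 4 DM3 libraries. The DM3 effects were 0.37 ± 0.62 (95% interval −1.12 to 1.87) for Slc6a8 and 0.01 ± 1.33 (−3.20 to 3.22) for Ampd3, and neither was called (limma, adjusted p of 0.848 and 0.999). The part of the rRNA and depth differences in these splits was not tested.

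Ak1 was at 61.4 and 78.6 FPKM in control GM, 50.1 and 55.7 in control DM3, 58.2 and 78.1 in Cas9M3 GM, and 81.2 and 89.3 in Cas9M3 DM3. On the deposited scale the Cas9M3 DM3 libraries were the highest of the 8 and the control DM3 libraries the lowest, a ratio of 1.61 between their means. The change of 0.69 ± 0.23 was not called (limma, adjusted p = 0.182), but it was with only the DM3 groups in the fit (adjusted p = 0.0273). Scaled to reads on genes, the Cas9M3 DM3 libraries were still highest, at 89.9 and 86.9. Control DM3, at 53.0 and 56.6, then overlapped with control GM, at 66.9 and 53.3.

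**Figure D4:**
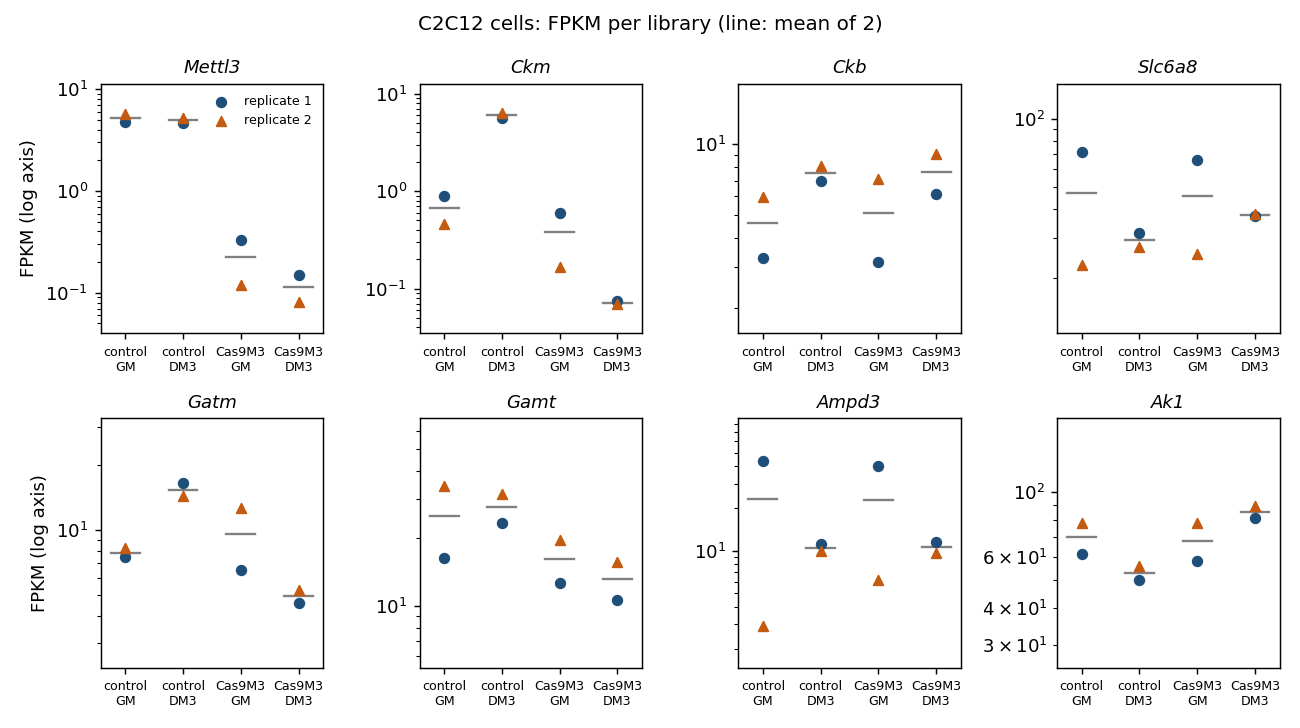
FPKM (y axis, log scale) of Mettl3 and the 7 members that passed the filter in 4 groups of C2C12 cells (x axis), with 1 point for each library and a line at the mean of 2. Mettl3 is low in all 4 Cas9M3 libraries, Ckm is highest in control DM3 and lowest in Cas9M3 DM3, and Slc6a8 and Ampd3 differ between replicates in GM.

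Over the cell table, 1 of 7 members was called for Cas9M3 against control on DM3, where 1.98% of 13824 genes were, and 3 were called with the replicate block. Without control DM3 replicate 1 or 2, or Cas9M3 DM3 replicate 1 or 2, 0 were called, and without any 1 GM library 2 were. With all 4 groups in the fit, limma called 0 of 7 in the other 4 comparisons. For Cas9M3 against control in GM, 0% of all genes were called and 0 members had an unadjusted p under 0.05. For control DM3 against GM it was 1.14% of all genes and 2 members under 0.05, and for Cas9M3 DM3 against GM 0.0289% and 2 members. For the difference of the Cas9M3 effect it was 0% and 2 members.

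Of the wider list, 39 genes were tested in the cells. Prkag3, the muscle subunit of AMP-activated protein kinase, was called lower in Cas9M3 DM3 than in control DM3 (−4.05 ± 0.43, limma, adjusted p = 0.0215) and higher in control DM3 than in control GM (3.81 ± 0.43, adjusted p = 0.0258). Pnp, purine nucleoside phosphorylase, was lower in control DM3 than in GM (−1.70 ± 0.25, limma, adjusted p = 0.0438). These calls were 2.56% of the list for Cas9M3 against control on DM3 and 5.13% for control DM3 against GM, against 1.98% and 1.14% of all genes. No other gene of the list was called in any of the 5 cell comparisons, and the list's median change on DM3 was −0.093, against −0.0465 over all genes.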

How the data were processed

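RNA-seq of 10 libraries of regenerating TA muscle and 8 libraries of C2C12 cells was used, with 2 libraries per group, and 8 samples of the series have no column in these tables and were not analysed here. HISAT2 alignment to GRCm38 and featureCounts counting preceded the FPKM values, which the authors made and deposited with the fpkm function of DESeq2, which uses size factors, while the strand setting is not given in the sources used here. The members and lists were chosen with earlier results of these data known.

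A gene needed 0.5 FPKM or more in 2 or more libraries to be tested, and log2(FPKM + 0.1) was fitted with limma 3.58.1 in R 4.3.3, separately for each table with all its groups, with Benjamini-Hochberg adjustment at 0.05 over all genes tested. Levels were summarised with pandas 2.3.3 in Python 3.11.15. The scripts were tested on simulated data. Depth was recovered from the step of 1 read, with 97.48% to 99.04% of low values within 0.02 of a whole read. An exact permutation test of 2 against 2 libraries cannot go below p = 0.333. In the cells, deviations of same-numbered libraries correlated at 0.278 to 0.68 in all 6 pairs of groups, and the numbers also marked the rRNA level and the depth. Fits with the replicate number as a block are therefore given where they change a call. Alternatives were other pseudocounts, filters, quantile normalization, fewer groups, a fold threshold, a replicate block, a term for Xist, leaving out each library and, chosen after seeing the data, scaling to reads on genes. The genes named are all members, the 2 other pathway genes called with the largest change in each direction, and the 3 genes most like each of Ckm, Ckb, Ckmt2 and Ampd3, of which 1 is not reported here.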

Additional observations from a re-analysis of the deposited data

How the results depend on the processing

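The day 3 changes of Gatm, Ckb, Gamt and Ckmt2 against day 0 kept their direction and their call under every alternative run. The causes of the changes listed here were not tested, except where an alternative itself removes libraries or raises the threshold.

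The number of members called on day 1 against day 0, which was 1, became 2 with a pseudocount of 1 and with a filter at 1 FPKM, and 0 with only the groups compared or with a term for Xist. A log2 fold change of at least 2 left 5 members on day 3, 2 on day 5, 4 for day 3 against day 1 and 4 for day 10 against day 3. On day 5 the count of 6 became 3 under quantile normalization and 0 with a term for Xist, where Gatm was at 3.79, Gamt at 3.57 and Ckmt2 at −2.40 (limma, adjusted p = 0.107 each), and day 3 against day 1 gave 5 in place of 9 with only the groups compared and 5 with a term for Xist. For Cas9M3 against control on DM3 the count of 1 became 3 with only the groups compared and 3 with the replicate block. For control DM3 against GM the count of 0 became 1 with a pseudocount of 1 and 1 with the replicate block.

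In the muscle table same-numbered deviations correlated at −0.019 to 0.211, and the numbers were not treated as pairs. With 2 libraries per group these correlations cannot show whether the libraries were paired. There the block left Ak1 on day 5 at −0.70 (limma, adjusted p = 0.0512) and called Slc6a8 at −0.73 (adjusted p = 0.0287). In the cells it called Gatm, Gamt and Ckm as given above and changed no other member's call.

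Leaving out 1 library at a time gave 0 to 3 members called on day 1, 0 to 7 on day 5, 5 to 9 for day 3 against day 1, 0 to 2 for Cas9M3 against control on DM3 and 0 to 1 for control DM3 against GM.

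The sign of these uncalled values turned. Under quantile normalization Ckm was at 0 on day 1 and 0.214 on day 10, Slc6a8 at 0.0484 and Ak1 at 0.0889 on day 10, Ampd3 at −0.0978 on day 5, Ak1 at 0.119 in GM and Ckb at 0.0423 on DM3 (Cas9M3 against control). With scaling to reads on genes, Ckm was at 0.0625, Slc6a8 at 0.0824 and Ak1 at 0.0956 on day 10, Ak1 at 0.201 in GM (Cas9M3 against control) and Ampd3 at 0.143 for control DM3 against GM. With a term for Xist, Ampd3 was at −0.215 on day 5 and 0.0348 for day 10 against day 3. Without 1 library, the muscle ranges that crossed 0 were −0.218 to 0.394 for Slc6a8 and −0.0496 to 0.268 for Gamt on day 1, −0.14 to 0.184 for Ampd3 on day 5, and, on day 10, −0.269 to 0.158 for Ckm, −0.342 to 0.271 for Slc6a8 and −0.189 to 0.144 for Ak1. Ampd3 ran from −0.203 to 0.0348 for day 10 against day 3. In GM, Cas9M3 against control ran from −0.479 to 0.671 for Ckb, −0.794 to 0.843 for Slc6a8, −0.265 to 0.676 for Gatm, −1.46 to 2.40 for Ampd3 and −0.255 to 0.168 for Ak1. On DM3 it ran from −0.279 to 0.27 for Ckb and −0.126 to 0.143 for Ampd3. Control DM3 against GM ran from −1.28 to 0.355 for Slc6a8, −0.329 to 0.741 for Gamt and −2.04 to 1.81 for Ampd3. Cas9M3 DM3 against GM ran from −0.795 to 0.565 for Slc6a8, −0.601 to 0.024 for Gamt and −1.91 to 0.758 for Ampd3. The difference of the Cas9M3 effects ran from −0.675 to 0.475 for Ckb, −0.47 to 1.17 for Slc6a8, −1.03 to 0.0406 for Gamt and −2.39 to 1.47 for Ampd3.

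Counts over all genes called moved by over 1.5 times in these cases. The 1005 of day 1 became 418 without a filter, 619 under quantile normalization, 0 with only the groups compared or a term for Xist, and 9 to 1829 without 1 library. The 8179 of day 3 ran from 5097 to 8653, the 4267 of day 5 from 19 to 4815 (1340 with only the groups compared, 0 with a term for Xist), and the 1 of day 10 from 0 to 3 (at most 28, without a filter). Day 3 against day 1 gave 5213, then 2835 with only the groups compared, 1369 with a term for Xist and 1275 to 5289 without 1 library. Day 10 against day 3 gave 6346, then 3923 with a term for Xist and 3244 to 6868. For Cas9M3 against control on DM3 the 274 became 453 with a pseudocount of 1, 2637 with only the groups compared, 505 with the block and 0 to 887. In GM the 0 became 0 to 24. For control DM3 against GM the 158 became 254 with a pseudocount of 1, 105 without a filter, 0 with only the groups compared, 411 with the block and 0 to 3696, and for Cas9M3 DM3 against GM the 4 ran up to 94 with a pseudocount of 1 and from 0 to 508. Scaling to reads on genes gave 0 on day 10, 126 for Cas9M3 against control on DM3, 91 for control DM3 against GM and 1 for Cas9M3 DM3 against GM. A log2 fold change of at least 2 left 248 on day 1, 2225 on day 3, 866 on day 5, 1009 for day 3 against day 1, 1387 for day 10 against day 3, 165 for Cas9M3 against control on DM3 and 96 for control DM3 against GM.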

Other observations

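The 2 main mitochondrial ADP/ATP carriers changed in share over the days after CTX. Slc25a5, the carrier of many tissues, held 0.946% and 1.62% of the summed FPKM of Slc25a4 and Slc25a5 on day 0, 2.98% and 3.05% on day 1, 18.3% and 30.1% on day 3, 5.62% and 6.36% on day 5, then 1.94% and 3.39% on day 10. In the C2C12 libraries it held 39.7% to 50.5%, lowest in Cas9M3 DM3 at 40.4% and 39.7%. These shares are descriptions with no test.

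Ak1 among the 9 adenylate kinases stood at 93.3% and 92.9% on day 0 and at 83.9% and 82.2% on day 3. On the deposited scale Mettl3 itself was not called in any muscle comparison, with a log2 change of −0.10 ± 0.15 on day 3 against day 0 (limma, adjusted p = 0.607). It was at 4.68 and 4.04 FPKM on day 0 and at 4.21 and 3.9 on day 3. The factors for reads on genes were 1.35 and 1.21 on day 0 and 0.726 and 0.706 on day 3. Divided by them, both day 3 libraries lie above both of day 0, so the direction depended on the scaling. No test of Mettl3 on that scale is given here.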
